A study of Mus musculus with 4 samples.

Results

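The cytosolic ribosomal protein genes encode the proteins of the large (Rpl) and small (Rps) subunits of the ribosome outside mitochondria. They were taken by symbol: Rpl or Rps followed by a digit, and Rplp0, Rplp1, Rplp2 and Rpsa, without pseudogenes marked -ps and without the Rps6k kinases. This gave 86 of the 31053 genes measured. Of these, 77 are core members, 46 of the large and 31 of the small subunit. The other 9 are paralogs or proteins named after a member: Rpl3l, Rpl7l1, Rpl10l, Rpl22l1, Rpl36al, Rpl39l, Rps27l, Rps27rt and Rps19bp1.

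A ribosome needs its subunit proteins in matched numbers, and their mRNAs are among the most abundant of most cells. Many of these mRNAs begin with a C and a run of pyrimidines, the 5' terminal oligopyrimidine (TOP) tract, through which their translation follows nutrient and growth signalling by the TOR kinase. Melanotrophs of the intermediate lobe and corticotrophs of the anterior lobe make the hormone precursor Pomc, somatotrophs make growth hormone (Gh), and lactotrophs make prolactin (Prl).

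The data are single-cell RNA counts of pituitary glands from mice with transgenic overexpression of p25 (p25OE) and from wild-type (WT) littermates. Mice were 14 or 40 weeks old. The strain label is C57BL/6- B6;CBA-BiTg mice for both genotypes. p25 is a fragment of the Cdk5 activator p35. Each genotype and age is 1 library, so there is no replicate error and no test, and every interval below is an exact 95% interval that covers counting error only. The labels do not give the number of animals behind a library, nor the promoter of the transgene.

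Throughout, 4 values in a row follow the order WT and p25OE at 14 weeks, then WT and p25OE at 40 weeks. Cells with at least 500 genes and at most 20% mitochondrial UMIs numbered 6579, 7667, 7927 and 7726, with a median of 4940 to 10778 UMIs. Classes were gated on marker genes, and 78.1% to 86.2% of kept cells fell in exactly 1 class. Gated melanotrophs were 8.10%, 21.7%, 6.70% and 81.9% of kept cells. Cdk5r1, the gene of p35, had 0.148, 0.258, 0.144 and 0.170 UMIs per 10000 in melanotrophs, and the matrices do not tell transgene from endogenous transcripts. Libraries shared 32 barcodes at 14 weeks and 135 at 40 weeks, and 1 to 5 across ages. The labels name the 10x 3' v2 kit for all 4 libraries and do not say which shared a run. The barcodes themselves, of which so few are shared across ages, appear to come from another set at 14 than at 40 weeks, so age and library preparation cannot be told apart.

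Ribosomal protein genes took 10.6%, 9.55%, 15.1% and 15.7% of the UMIs of kept cells. Leaving the 7 hormone genes and the mitochondrial genes out of the total gave 17.7%, 14.4%, 24.1% and 19.0%. By this second measure the p25OE library was the lower at both ages, 0.813-fold of WT at 14 weeks and 0.789-fold at 40 weeks. With all UMIs as the total it was 0.905-fold at 14 weeks and 1.03-fold at 40 weeks. The hormone genes held 35.4%, 28.4%, 33.5% and 13.6% of UMIs, so the 2 totals lie closest together for p25OE at 40 weeks. Whole-library values also carry the make-up of the gland, and the classes are therefore given one by one.

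Within melanotrophs (533, 1663, 531 and 6329 cells) the share of all UMIs was 10.4%, 8.42%, 13.7% and 15.6%. Without hormone and mitochondrial genes it was 14.5%, 10.8%, 20.8% and 19.0%. The 14-week p25OE melanotrophs were thus low by either measure, 0.809-fold (0.807 to 0.811) and 0.745-fold (0.743 to 0.746) of WT. At 40 weeks the direction depended on the total: 1.14-fold with all UMIs and 0.915-fold (0.913 to 0.918) without the hormone and mitochondrial genes. Pomc alone held 21.0%, 14.3%, 24.0% and 13.7% of melanotroph UMIs.

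**Figure D1:**
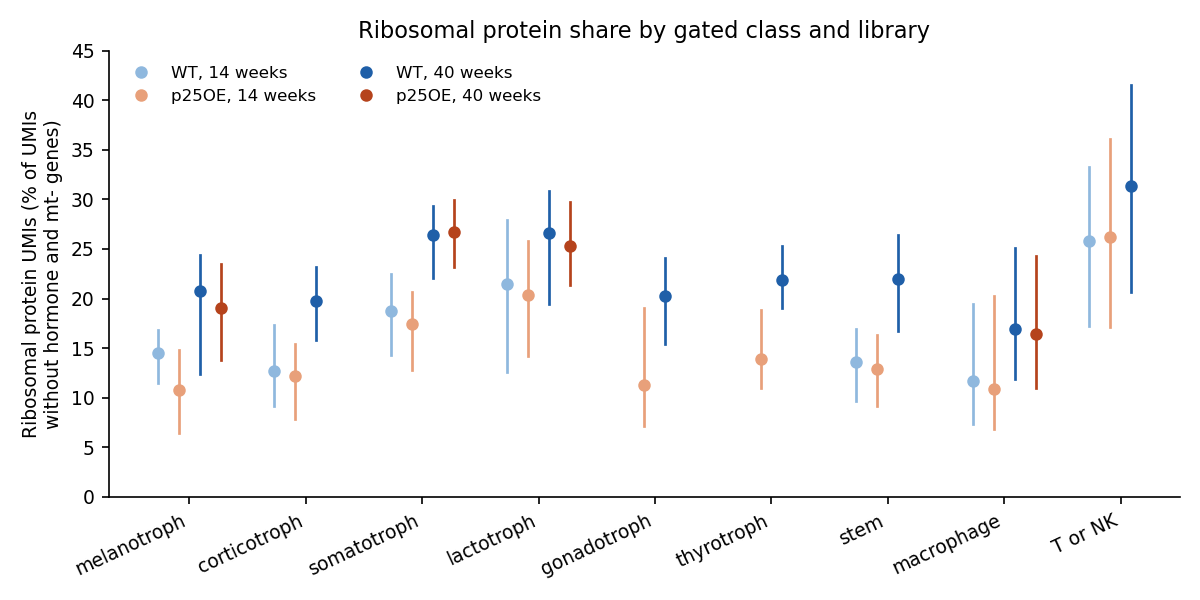
Ribosomal protein UMIs as a percentage of UMIs without hormone and mitochondrial genes, by gated class and library (points: pooled share; bars: the 10th to 90th percentile of cells; classes with at least 50 cells). In melanotrophs the p25OE point at 14 weeks lies at 10.8%, below WT at 14.5%, and T or NK cells are the highest class in each of the 3 libraries that hold enough of them.

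The other classes showed smaller genotype differences on the total without hormone and mitochondrial genes. At 14 weeks p25OE over WT was 0.960 in corticotrophs, 0.927 in somatotrophs, 0.947 in lactotrophs, 0.945 in stem cells, 0.928 in macrophages and 1.01 in T or NK cells. Counting core members at least 1.5-fold lower at 14 weeks, 0 or 1 of 77 passed in each of these 6 classes, against 4.4%, 5.15%, 4.49%, 7.04%, 6.15% and 9.87% of genes in the same order. At 40 weeks, when p25OE held few cells of other classes, the ratio was 1.01 in somatotrophs (51 p25OE cells), 0.95 in lactotrophs (60) and 0.973 in macrophages (173). Somatotrophs and lactotrophs were gated on Gh and Prl themselves, so their share of all UMIs is tied to the gate and is not read. With 1 library a group, whether melanotrophs differ from other classes was not tested.

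T or NK cells, lymphocytes with little cytoplasm, held the highest share, 23.9%, 24.0% and 26.0% of all UMIs in the first 3 libraries. Macrophages held the lowest share without hormone and mitochondrial genes in WT at both ages and in p25OE at 40 weeks (11.7%, 16.9% and 16.4%). In p25OE at 14 weeks melanotrophs, at 10.8%, were just under macrophages, at 10.9%.

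The low share in 14-week p25OE melanotrophs was spread over the cells. The median cell held 14.5% (WT) and 10.3% (p25OE), with the 10th to 90th percentile at 11.5% to 16.8% and 6.47% to 14.8%. At 40 weeks the medians were 20.3% and 18.3%, and the percentile ranges were 12.4% to 24.4% and 13.8% to 23.5%. The cells of the genotypes overlap at both ages.

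**Figure D2:**
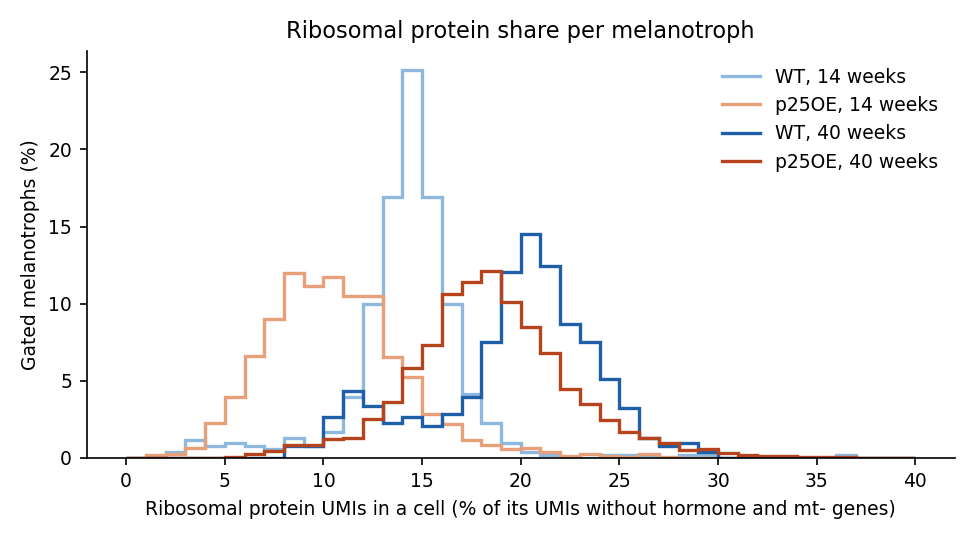
Ribosomal protein share per gated melanotroph (x axis: percentage of the cell's UMIs without hormone and mitochondrial genes; y axis: percentage of the library's melanotrophs in each 1-point bin). The p25OE curve at 14 weeks, with a median of 10.3%, is shifted left of WT at 14.5%, while the 40-week curves, at 20.3% and 18.3%, overlap more.

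Melanotroph libraries also differed in depth, nuclear RNA and division. The median UMI count was 17487, 8862, 7354 and 7196, and Malat1, a nuclear noncoding RNA, held 2.09%, 2.89%, 2.0% and 2.58% of UMIs. In melanotrophs with 5000 to 20000 UMIs the share without hormone and mitochondrial genes was 14.6%, 10.9%, 20.9% and 18.9%. In melanotrophs with Malat1 at 1% to 3% it was 14.6%, 11.4%, 20.5% and 19.1%. Both restrictions were chosen after the data were seen, and the genotype difference kept its direction in each.

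Dividing melanotrophs, with at least 3 of 10 mitosis genes detected, numbered 2, 200, 0 and 917. Their ribosomal protein share was lower than that of the other melanotrophs of the same library, 9.54% against 11.1% in p25OE at 14 weeks, and at 40 weeks 17.7% against 19.4%. Non-dividing 14-week melanotrophs alone held 14.5% (WT) and 11.1% (p25OE).

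Across the melanotrophs of a library, Spearman's rho of the ribosomal protein share with the Malat1 share was -0.52, -0.47, -0.58 and -0.26. Its rho with the Pomc share was -0.05 and -0.36 in the WT libraries at 14 and 40 weeks, against 0.34 and 0.33 in the p25OE libraries. These are descriptions over 533, 1663, 531 and 6329 cells, which share a library. The ribosomal protein share used here is the one without hormone and mitochondrial genes. Its total holds Malat1, which ties those shares to each other, and leaves Pomc out.

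Markers of other cell types were found in gated melanotrophs to unequal degrees. The 5 somatotroph markers summed to 84.1, 51.0, 266.2 and 5.33 UMIs per 10000 in melanotrophs, nearly all of it Gh, and the 5 lactotroph markers to 61.8, 70.9, 293.7 and 12.2. Ghsr was at 0 in p25OE at 14 weeks and WT at 40 weeks. The 5 gonadotroph markers summed to 0.796, 1.48, 13.0 and 0.262, the 4 thyrotroph markers to 0.799, 1.54, 12.2 and 0.259, and the 5 erythroid markers to 0.0140, 0.590, 14.2 and 0.00276. Apart from Hba-a2 and Hbb-bt, at 0 in p25OE at 40 weeks, the genes of these 3 lists had UMIs in each library. Like Gh and Prl, all 3 were highest in WT at 40 weeks. The 9 macrophage markers summed to 0.861 to 3.73. The 8 T or NK markers summed to 0.304, 0.346, 0.426 and 1.33, with Klrd1 at 0 in WT at 14 weeks. They were thus highest in p25OE at 40 weeks, a library with 10 gated T or NK cells. The part of other cell types in the ribosomal protein values was not tested.

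Single members were compared by summed melanotroph UMIs scaled with median-of-ratios factors, so each ratio compares a member with the typical gene of that class. The unit of a level is counts per 1000000 UMIs on that scale (scaled CPM). UMIs of a 3' library count molecules and are not divided by gene length, and no level is compared between genes here except as a share of UMIs. The 83 members other than Rpl3l, Rpl10l and Rpl39l had at least 1000 UMIs in each library. Those 3, known mainly from striated muscle (Rpl3l) and the male germ line (Rpl10l and Rpl39l), had 2 to 40 UMIs in the kept cells of any library. No ratio is read from them.

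UMIs were spread over the family. In the WT kept cells at 14 weeks the 5 members with most UMIs were Rpl13 (3.12% of ribosomal protein UMIs), Rps3a1, Rpl41, Rps27a and Rps24, 13.7% together. At 40 weeks they were Rpl41 (3.61%), Rpl13, Rps14, Rps23 and Rpl10, 14.0% together. The 5 with fewest among the 83 were the same genes at both ages: Rps27rt, Rps19bp1, Rpl7l1, Rps27l and Rpl13a, from 0.024% to 0.259%. Rpl13a was the 1 core member among them.

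At 14 weeks all 77 core members were below 0 on the log2 scale in p25OE melanotrophs, with a median of -0.50 and a range from -1.09 to -0.11. None was at least 1.5-fold higher, against 16% of the 13098 genes tested. At least 1.5-fold lower were 22 of 77 (28.6%), against 8.47% of all genes tested. Counting paralogs, 25 of 83 members were lower. On plain CPM, which moves the median of all genes from 0.04 to 0.24, the core median was -0.30 and 5 core members were lower (4.32% of all genes). In melanotrophs with Malat1 at 1% to 3% of UMIs, 13 members were lower. No share over all genes is given for that cell set, so this count is not read against genes in general.

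At 40 weeks 55 of 77 core members were below 0, the median was -0.17 and the range ran from -0.56 to 0.33. No core member passed 1.5-fold in either direction. Of the 13840 genes tested, 22% were higher and 15.5% lower. The median-of-ratios factors were 0.213 (WT) and 3.86 (p25OE), so a gene near the minimum of summed UMIs has few WT UMIs. Counting error can carry such a gene past 1.5-fold, while core members have many more UMIs. The melanotroph shares over all genes at 40 weeks hold this error, and core members are not read against them. On plain CPM, which moves the median of all genes from 0.06 to 0.44, the core median was 0.21 and 7 core members were at least 1.5-fold higher (40.7% of all genes). A scaling moves all genes of a library alike, so the distance of the core median from the median of all genes does not depend on it. This distance was -0.54 at 14 weeks and -0.23 at 40 weeks. With no minimum of UMIs it was -0.55 and -0.46. The subunits moved alike, with medians of -0.48 (large) and -0.54 (small) at 14 weeks and -0.16 and -0.19 at 40 weeks.

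**Figure D3:**
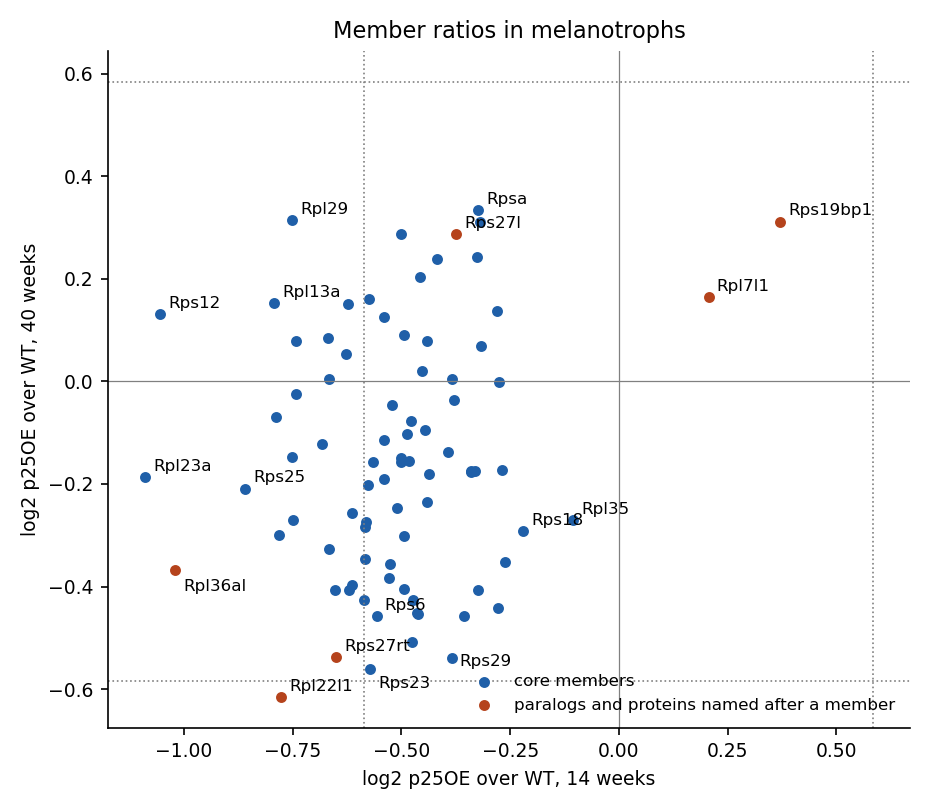
Log2 ratio of p25OE over WT in melanotrophs at 14 weeks (x axis) and 40 weeks (y axis) for 83 members (points; dotted lines: 1.5-fold). All core members lie left of 0 on the x axis, none passes 1.5-fold on the y axis, and Rps19bp1 and Rpl7l1 are the 2 members above 0 on both axes.

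Of the large-subunit proteins, Rpl23a, which sits at the exit of the peptide tunnel, was the lowest core member at 14 weeks. Its level was 373 scaled CPM in WT and 175 in p25OE, a 2.13-fold lower value (log2 -1.09). At 40 weeks it was 2144 and 1885 scaled CPM, 1.14-fold lower. Rpl13a, known also for a role in translational silencing outside the ribosome, stood at 108 and 62.0 scaled CPM at 14 weeks, 1.73-fold lower, and at 534 and 594 at 40 weeks. Rpl35 was the least changed core member at 14 weeks, with 444 and 413 scaled CPM (log2 -0.11), and stood at 827 and 685 at 40 weeks. Rpl29, a small basic protein of the large subunit, went from 518 to 308 scaled CPM at 14 weeks and from 1004 to 1248 at 40 weeks. Rpl23a, Rpl13a, Rpl35 and Rpl29 were all higher in both 40-week libraries than in both 14-week libraries. This was not particular to them. Over the 77 core members the median log2 ratio of 40 over 14 weeks was 0.82 in WT and 1.13 in p25OE melanotrophs.

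Of the small-subunit proteins, Rps12 was 2.08-fold lower at 14 weeks (1000.1 and 481.0 scaled CPM) and stood at 1349 and 1477 at 40 weeks. As a share of ribosomal protein UMIs, Rps12 had log2 ratios of 40 over 14 weeks of -0.63 to -0.41 over the WT classes. Over the p25OE classes they were 0.28 to 0.52, so this shift was not particular to melanotrophs. Rps25, which is needed for initiation at some internal ribosome entry sites, was 1.81-fold lower at 14 weeks (660 and 364) and stood at 1932 and 1671 at 40 weeks. Rps6, the substrate of the S6 kinases, had 748, 509, 3168 and 2307 scaled CPM, 1.47-fold and 1.37-fold lower in p25OE. Rps23, which lies at the decoding centre, was the lowest core member at 40 weeks, with 4597 and 3117 scaled CPM (1.47-fold lower), after 1.49-fold lower at 14 weeks. Rps29 followed at 40 weeks, with 2764 and 1902 scaled CPM, a 1.45-fold lower value. Rpsa, the laminin receptor homolog of the small subunit, was the highest core member at 40 weeks, 1.26-fold higher (1182 and 1490 scaled CPM), after 0.799-fold of WT at 14 weeks (1676 and 1340). None of these small-subunit differences between p25OE and WT at 40 weeks reached 1.5-fold.

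Members that stood apart from the family were few. A member was taken to stand apart when its ratio lay over 1.5-fold from the core median with its whole interval. In melanotrophs this held for 1 of 83 members at 14 weeks and 0 at 40 weeks, against 26.2% and 14.3% of all genes tested. The reference is the family's own median, so the gap to other genes is partly built in and is not read. The member was Rps19bp1, named for its binding to Rps19 and not a subunit protein, with 33.7 and 43.6 scaled CPM, 1.83-fold (1.62 to 2.07) above the family. It no longer stood apart when the gate was doubled or when only cells with 5000 to 20000 UMIs were used. At 40 weeks it had 47.7 and 59.1 scaled CPM. Rpl7l1, a nucleolar relative of Rpl7, stood at 44.2 and 51.0 scaled CPM at 14 weeks and 39.7 and 44.5 at 40 weeks.

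In all kept cells 11 of 77 core members were at least 1.5-fold lower at 14 weeks (14.3%, against 7.52% of genes) and 20 at 40 weeks (26.0%, against 21.4%). Rps27l, a paralog known as a p53 target, stood 1.90-fold above the family in all kept cells at 40 weeks. Within melanotrophs it did not. The melanotroph share of kept cells, given above, moved with this whole-gland value, and its part in it was not tested.

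Promoters from RefSeq (GRCm38.p6) were at hand for 57 of the 77 core members. A TOP-like start, a C at an annotated start followed by at least 4 pyrimidines on the coding strand, was present in 13 of the 57 (22.8%), against 560 of 19407 genes (2.89%) and 0 of 69 mitochondrial ribosomal protein genes. Annotated starts can lie some bases off the site used, so the share depends on the annotation. Among core members at least 1.5-fold lower at 14 weeks it was 3 of 17, and among the others 10 of 40. The windows run from 40 bases before the annotated start to 19 after it, 5' to 3' on the coding strand, with the pyrimidine run over the start in capitals. Rpl35, Rps6, Rpl14 and Rps10 show the tract. Rps12 and Rpl22l1, which were low in p25OE at 14 weeks, have no pyrimidine run at the annotated start itself. In both, a run of pyrimidines lies shortly after that start, so these windows do not show that either gene lacks a tract. No link between tract and ratio is read from the windows displayed. Rpl14 and Rps10 were picked for display after the sequences were seen.
Rpl35 (chr2:39005112-39005171, minus strand): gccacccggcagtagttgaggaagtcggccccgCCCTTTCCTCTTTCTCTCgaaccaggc
Rps6 (chr4:86857348-86857407, minus strand): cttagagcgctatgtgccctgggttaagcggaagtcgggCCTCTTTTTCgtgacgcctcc
Rpl14 (chr9:120571477-120571536, plus strand): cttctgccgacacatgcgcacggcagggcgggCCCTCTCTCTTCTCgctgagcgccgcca
Rps10 (chr17:27635225-27635284, minus strand): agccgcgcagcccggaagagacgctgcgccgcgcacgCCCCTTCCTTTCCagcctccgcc
Rps12 (chr10:23787190-23787249, minus strand): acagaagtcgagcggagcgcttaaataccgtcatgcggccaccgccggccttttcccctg
Rpl22l1 (chr3:28805468-28805527, plus strand): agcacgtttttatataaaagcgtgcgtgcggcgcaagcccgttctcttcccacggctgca

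On this scaling Rpl22l1 was the only member at least 1.5-fold lower in p25OE melanotrophs at both ages. It is the paralog of Rpl22, an RNA-binding protein of the large subunit that is known to repress Rpl22l1. Rpl22l1 had 1078, 630, 1636 and 1068 scaled CPM, 1.71-fold lower at 14 weeks and 1.53-fold lower at 40 weeks. On plain CPM neither call held (log2 -0.57 and -0.23), and with TMM factors the 40-week call did not (-0.53). It was lost at 40 weeks in the Malat1 band too, where no member was lower. Rpl22 had 583, 469, 613 and 643 scaled CPM. As a percentage of both genes' UMIs, Rpl22l1 was 64.9%, 57.3%, 72.7% and 62.4% in melanotrophs, lower in p25OE at both ages with intervals no wider than 71.7% to 73.8%.

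The pair was split differently by class. Rpl22l1 was 30.1%, 30.0%, 48.6% and 43.7% of the pair in macrophages and 32.9%, 30.1% and 47.9% in T or NK cells. It was 46.8%, 41.5% and 60.2% in stem cells and 61.1%, 61.5%, 71.7% and 55.4% in somatotrophs. It was thus lower in macrophages and lymphocytes than in melanotrophs in each library that could be compared. In WT it was higher at 40 than at 14 weeks in all 5 of these classes, including melanotrophs. The lower value in p25OE was not particular to melanotrophs. At 14 weeks it was also seen in corticotrophs (WT 56.7%, p25OE 52.4%), lactotrophs (60.1% and 55.9%), stem cells and T or NK cells. Macrophages were level at that age, and somatotrophs were slightly higher in p25OE. At 40 weeks somatotrophs and macrophages were lower in p25OE, and lactotrophs stood at 66.9% and 67.5%.

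**Figure D4:**
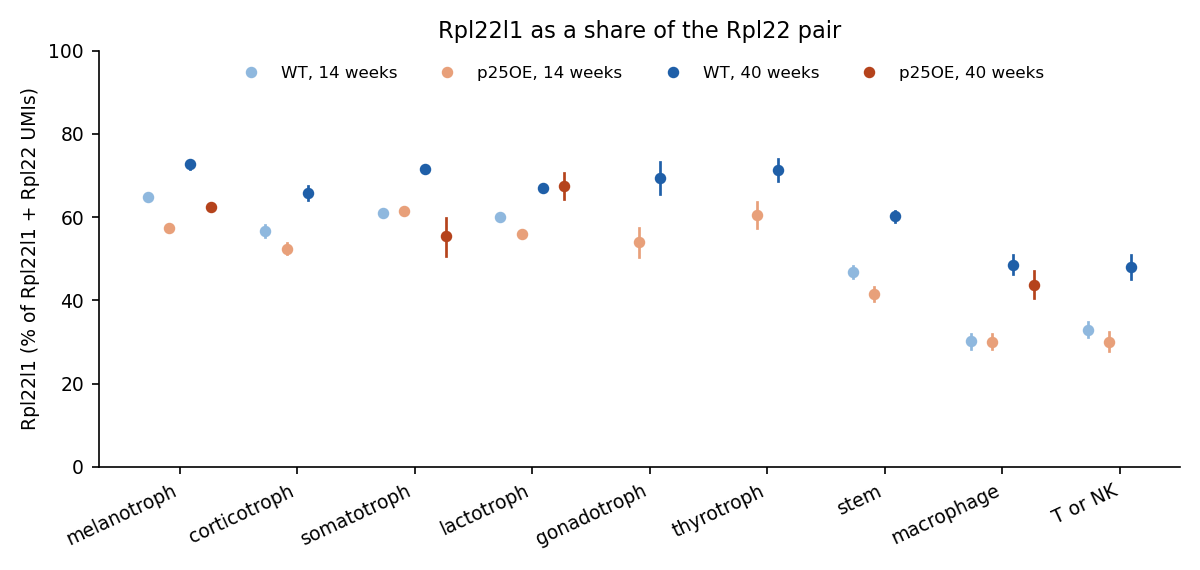
Rpl22l1 as a percentage of Rpl22l1 plus Rpl22 UMIs, by class and library (points; bars: exact 95% binomial intervals, counting error only). Macrophages and T or NK cells lie at 30.0% to 48.6%, below the melanotrophs at 57.3% to 72.7%.

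Rps27l was 22.6%, 24.1%, 16.1% and 23.7% of the Rps27l and Rps27 UMIs in melanotrophs. In T or NK cells it was 5.62%, 5.93% and 6.22%, and in somatotrophs 14.6%, 13.1%, 11.4% and 9.61%. Rpl36al was 26.6%, 21.5%, 39.9% and 40.6% of its pair with Rpl36a in melanotrophs, and 2.03-fold lower in p25OE at 14 weeks (214 and 106 scaled CPM). At 14 weeks its share of the pair was lower in p25OE in each other class compared. It was 30.3% (WT) and 25.3% (p25OE) in somatotrophs, and 29.8% and 24.0% in lactotrophs. Rps27rt, a single-exon copy of Rps27, was 1.57-fold lower at 14 weeks and 1.45-fold lower at 40 weeks. Its sequence is close to that of Rps27 and the counting could split reads between them, so its values are uncertain, as are those of the Rpl36a pair.

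Some members weighed differently in immune cells. Each member's share of all ribosomal protein UMIs was set against the median of the other classes in the same library. In T or NK cells 3 of 80 members were at least 1.5-fold higher in each of 3 libraries, among them Rps15a, and 5 were lower, among them Rpl10, Rpl22l1, Rpl41 and Rps27l. Over all genes, scaled in the same way, 17.8% were higher and 34.9% lower. In macrophages 2 of 81 members were higher in each of 4 libraries, among them Rps29, and 1 was lower (Rpl22l1), against 33.6% and 3.73% of genes. Members are centred on the family's own total while other genes carry the class difference in ribosomal protein share, so nothing is read from these percentages. The 7 other classes had no such member. These members were named after their values were seen.

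Rps29 held 2.01% to 2.85% of ribosomal protein UMIs in macrophages, 1.53-fold to 1.79-fold the other classes, and 1.28% to 1.72% in T or NK cells, close to their other classes. Rpl41, the shortest ribosomal protein, held 1.21%, 1.24% and 1.88% in T or NK cells, 1.94-fold to 2.14-fold below the other classes.

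Members also kept their order between the ages to different degrees. In melanotrophs the core median of the ratio of 40 over 14 weeks was 0.82 in WT and 1.13 in p25OE on the log2 scale. To compare members within the family, each member's share of ribosomal protein UMIs at 40 weeks was divided by that at 14 weeks in 11 combinations of genotype and class. Of 83 members, 14 were at least 1.5-fold higher and 6 at least 1.5-fold lower in all 11 combinations, against 0.651% and 21.4% of all genes on the same scale. That scale is the ribosomal protein total, against which other genes fall where the family's level is higher (core medians of 40 over 14 weeks were 0.20 to 1.13 on the log2 scale), so the members' counts are not read against it. The sign was the same in all 11 for 52 members.

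Rpl23a went from 0.378% to 1.21% of ribosomal protein UMIs in WT melanotrophs and from 0.252% to 1.22% in p25OE, with log2 ratios of 1.68 to 2.56 over the combinations. Rpl13a (1.47 to 2.36), Rps15 (1.21 to 2.02) and Rps6 (1.03 to 1.82) had likewise positive values in each. Rpsa went from 1.70% to 0.668% in WT and from 1.93% to 0.964% in p25OE melanotrophs, with log2 ratios of -1.66 to -1.0. Rpl30 had -1.30 to -0.97. Across the 77 core members, Pearson's r of the WT melanotroph values with those of p25OE melanotrophs was 0.90. These are correlations across genes, which are not replicates. Ages differ in barcode set as well, so the share of these differences that belongs to age cannot be told apart from that of library preparation.

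**Figure D5:**
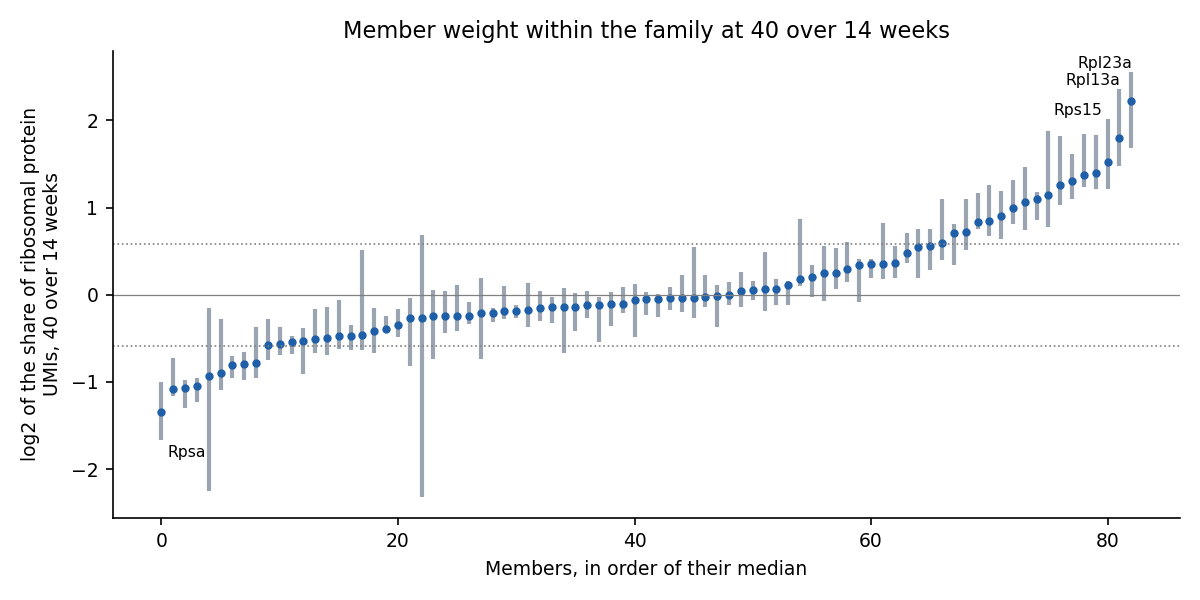
Log2 ratio of each member's share of ribosomal protein UMIs at 40 over 14 weeks (points: median over 11 combinations of genotype and class; bars: lowest to highest; dotted lines: 1.5-fold). Rpl23a, Rpl13a and Rps15 lie at the upper end, with lowest values of 1.68, 1.47 and 1.21, and Rpsa at the lower end.

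Around the ribosome, genes of the TOP class outside the family had a median log2 of -0.52 in p25OE melanotrophs at 14 weeks. Of the 21 tested, 7 were at least 1.5-fold lower and none higher (all genes: 8.47% and 16%). At 40 weeks none passed in either direction and the median was -0.01. On plain CPM these medians were -0.32 and 0.37. Eef1a1, the elongation factor that brings tRNAs to the ribosome, was lowest at 14 weeks, with 3920 and 2045 scaled CPM. Fau, which encodes a small-subunit protein fused to a ubiquitin-like protein, stood at 1665 and 1177 scaled CPM at 14 weeks. Rack1, a scaffold on the small subunit, was 1.54-fold lower at 14 weeks (395 and 257 scaled CPM) and stood at 472 and 552 at 40 weeks. Nap1l1, a histone chaperone of the same class, stood at 128 and 169 at 14 weeks.

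Ribosome biogenesis factors assemble the subunits in the nucleolus. None of 37 passed as higher and 4 as lower at 14 weeks (median -0.12). The counts for 40 weeks were 8 and 2 (median 0.20). These counts lie near the shares over all genes for genes lower at 14 weeks (8.47%) and higher at 40 weeks (22%), and below them for the others (16% and 15.5%). The 40-week shares hold the counting error of genes with few WT UMIs, here and for the lists below. On plain CPM the medians were 0.08 and 0.58, so the sign at 14 weeks depends on the scaling. Nucleolin (Ncl) had 228 and 335 scaled CPM at 14 weeks and 179 and 253 at 40 weeks. Nucleophosmin (Npm1) had 749 and 671 at 14 weeks and 639 and 768 at 40 weeks. Gnl3 (nucleostemin), a GTPase of the nucleolus, was 2.62-fold higher at 40 weeks (46.0 and 120 scaled CPM), and Nop10, a small nucleolar RNP protein, was 1.64-fold and 1.57-fold lower at the 2 ages. Of 14 RNA polymerase I genes 1 was higher at each age and none lower: Ubtf at 14 weeks (1.52-fold) and Taf1d at 40 weeks (2.20-fold). Both counts are below the 16% and 22% of all genes, of which the 22% holds that counting error.

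The MYC and MAX network, which sets growth-related transcription, had 4 of 11 genes higher and 1 lower at 14 weeks (median 0.09). For 40 weeks the counts were 5 and 1 (median 0.45). The shares over all genes are 16% (higher) and 8.47% (lower) for 14 weeks, then 22% and 15.5%. On plain CPM the medians were 0.29 and 0.83. Mycl was 2.72-fold and 2.61-fold higher, from 199 and 33 WT UMIs at 14 and 40 weeks. Mxd3, a MAX partner expressed in dividing cells, had 6 and 115 UMIs at 14 weeks and 1 and 553 at 40 weeks, where the scaled ratio had an interval of 5.44 to 1205. Mxd4, a MAX partner of resting cells, was 1.68-fold and 1.66-fold lower. Myc itself had 13.9 and 11.3 scaled CPM at 14 weeks, and 10 and 282 UMIs at 40 weeks gave a ratio of 1.55 (0.832 to 3.27).

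In the TOR pathway 1 of 19 genes was higher and 2 were lower at 14 weeks. The counts for 40 weeks were 0 and 1 (medians -0.21 and -0.24, on plain CPM -0.0040 and 0.15). The lower count at 14 weeks is near the 8.47% of all genes, and the other counts are below their shares of 16%, 22% and 15.5%. The last 2 shares, for 40 weeks, hold the counting error of genes with few WT UMIs. Deptor, an inhibitor of the TOR kinase, was low at both ages, with 12.3 and 4.31 scaled CPM at 14 weeks and 19.2 and 3.50 at 40 weeks, 2.85-fold and 5.49-fold lower. Rps6kb2, an S6 kinase, was 1.53-fold higher at 14 weeks and 1.20-fold (0.906 to 1.61) at 40 weeks. The mitochondrial ribosomal proteins, a separate set of subunits that translates the mitochondrial genome, had 4 of 77 lower and none higher at 14 weeks (median -0.21). Of 78 tested at 40 weeks, 5 passed in each direction (median -0.19). On plain CPM these medians were -0.0054 and 0.19. Mrpl53, counted as higher at 40 weeks, had 0 WT and 55 p25OE UMIs, and its interval (0.794 upward) holds a ratio below 1.5. All 4 counts are below the shares over all genes (8.47% lower and 16% higher at 14 weeks, 15.5% and 22% at 40 weeks). The 40-week shares hold the counting error of genes with few WT UMIs. Mrps34 was 1.53-fold and 1.70-fold lower.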

How the data were processed

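The 4 deposited matrices of UMI counts per gene and barcode are whole numbers as the authors deposited them, made with Cell Ranger 3.0.2 on mm10 per the submitters' processing notes (the file headers give 3.0.1). Total counts were 95242353, 77275454, 53714895 and 60662506 (WT and p25OE at 14 weeks, then at 40 weeks). How reads shared with ribosomal protein pseudogenes were counted is not given in the sources used here.

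Barcodes with under 500 genes or over 20% mitochondrial UMIs were left out. Cells passing exactly 1 of 15 marker gates were classed. The melanotroph gate was at least 10 UMIs per 10000 and 3 UMIs in all of Pcsk2, Pax7 and Oacyl. Gate thresholds were set after the data were seen. No doublet caller was run. Cells passing several gates (0.544% to 7.93%) were left out of classes, and an alternative leaves out the 5% of cells with most UMIs. Classes with under 50 cells in a library were not used.

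Gene UMIs were summed per library and class, and genes with at least 50 UMIs over the compared pair were compared. Median-of-ratios factors used genes that had 20 or more UMIs in every library, and 1.5-fold was called higher or lower. Ratios have exact intervals from Poisson counts, shares have Clopper-Pearson intervals, and scripts were tested on simulated data. Analyses used Python 3.11.15, numpy 2.4.6, scipy 1.17.1 and pandas 2.3.3, and edgeR 4.0.16 for TMM factors as an alternative.

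Named members are the 5 with most and the 5 with fewest UMIs, the 5 highest and 5 lowest ratios in melanotrophs at each age, paralogs with their partners, Rps6, and 2 highest and 2 lowest genes of each list with fixed additions, of which the text gives the main ones. Members named for class or age weights were chosen after their values were seen. Members and lists were chosen with earlier results of these data known. Promoter sequences and their coordinates come from RefSeq on GRCm38.p6. Values of some single genes are not reported here.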

Additional observations from a re-analysis of the deposited data

Results flagged for a closer look

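Some values moved in opposite directions at the 2 ages. With 1 library a group these differences were not tested. As a ratio of p25OE over WT, the ribosomal protein share of all UMIs was 0.905 at 14 weeks and 1.03 at 40 weeks in all kept cells. It was 0.809 and 1.14 in melanotrophs, 0.901 and 1.15 in macrophages, and 0.966 and 1.32 in somatotrophs, where the gate on Gh sets this share in part and the values are listed only. Without hormone and mitochondrial genes only the somatotrophs kept opposite directions among these classes, at 0.927 and 1.01, with 51 p25OE cells at 40 weeks. Rpsa in melanotrophs had a log2 ratio of -0.32 at 14 weeks and 0.33 at 40 weeks, the 1 member past 0.32 on the log2 scale in opposite directions at the 2 ages.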

How the results depend on the processing

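No paired analysis was possible because each genotype and age is 1 library. Values are log2 ratios of p25OE over WT for shares, and counts of members or genes for the rest. The cause of a change was not tested unless the alternative itself sets it (another fold or fewer genes). All-kept shares at 14 weeks (-0.14) were -0.14 with at least 1000 genes and at most 10% mitochondrial UMIs, -0.12 without the 5% of cells with most UMIs, -0.19 as a mean of cells, -0.30 without hormone and mitochondrial genes and -0.15 over every barcode. At 40 weeks (0.05) they were, in that order, 0.033, 0.041, 0.043, -0.34 (reversed) and 0.063, and 0.046 with core members only. Melanotroph shares at 14 weeks (-0.31) were -0.28 and -0.28 under the first 2 alternatives, -0.32 as a mean of cells, -0.43 without hormone and mitochondrial genes, -0.26 (5000 to 20000 UMIs), -0.25 (Malat1 at 1% to 3%) and -0.29 (no dividing cells). At 40 weeks (0.19) they were 0.14, 0.22, 0.30, -0.13 (reversed), 0.15, 0.19 and 0.20 in the same order, 0.19 with the stricter gate and 0.19 over every barcode. The last 3 cell sets were chosen after the data were seen. Without hormone and mitochondrial genes the melanotroph ratio stayed between -0.43 and -0.36 at 14 weeks and between -0.14 and -0.09 at 40 weeks over 9 alternatives. Small ratios elsewhere changed sign: corticotrophs to 0.023 (1000 genes) and stem cells to 0.023 (stricter gate). Macrophages at 40 weeks went from 0.20 to -0.04 without hormone and mitochondrial genes, so their sign depended on the total, like that of melanotrophs.

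Members lower in melanotrophs at 14 weeks (25) were 6 on plain CPM, 72 at a looser threshold (0.32 on the log2 scale), 3 at 2-fold and 13 in the Malat1 band, with 1 higher at the looser threshold. At 40 weeks (1 lower, 0 higher) 0 were lower on plain CPM (9 higher), TMM, 2-fold, core members and the Malat1 band. There, 2 were lower with the 1000-gene filter and without the cells with most UMIs, 3 in the UMI band, 3 on mean CPM per cell, 23 at the looser threshold (1 higher) and 2 without a minimum (2 higher). In all kept cells, members lower at 14 weeks were 2 (plain CPM), 63 (looser threshold), 0 (2-fold) and 26 (without the cells with most UMIs). At 40 weeks they were 0 (plain CPM, 3 higher), 9 (TMM), 57 (looser threshold, 1 higher) and 0 (2-fold). Members apart from the family at 14 weeks were 2 with the 1000-gene filter, and 0 with the stricter gate and in the UMI band.

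On plain CPM, list genes higher and lower at 14 weeks were 1 and 1 (TOP class), 3 and 1 (biogenesis), 2 and 0 (polymerase I), 5 and 0 (MYC network), 1 and 1 (TOR) and 0 and 0 (mitochondrial). At 40 weeks they were 7 and 0, 18 and 0, 6 and 0, 7 and 0, 1 and 1, and 15 and 0. Over all genes tested in melanotrophs on plain CPM, 4.32% were lower at 14 weeks and 40.7% higher at 40 weeks. The 40-week share holds the counting error of genes with few WT UMIs. For the other counts under alternatives in this section no share over all genes is given, so they are not read against genes in general. At the looser threshold, the lists with a changed count gave 1 and 18 (TOP), 3 and 8 (biogenesis), 3 and 2 (polymerase I), 2 and 7 (TOR) and 1 and 25 (mitochondrial) at 14 weeks. At 40 weeks TOP gave 4 and 3, biogenesis 13 higher, polymerase I 3 and 2, MYC 2 lower, TOR 7 lower and mitochondrial 11 and 19. Of 408 values of the 37 named members under alternatives, 218 lay within the counting interval and 190 outside it. These alternatives used another scaling or averaging, a stricter filter or gate, or left out the cells with most UMIs. The UMI band, the Malat1 band and the set without dividing cells were not among them. Changes of sign were counted only for values at least 1.5-fold in the main setting, and 0 were found. At 40 weeks only 1 member qualified, so this 0 says little about the others there.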
